A study of Mus musculus with 3 samples.

Results

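The 10 genes described here encode keratins and proteins of the cornified layer of the epidermis, and they are read from 10 of the 15554 rows of a gene expression table of NIH3T3 fibroblasts. They are the 8 keratin genes *Krt7*, *Krt8*, *Krt10*, *Krt14*, *Krt16*, *Krt17*, *Krt18* and *Krt19* together with *Cdsn* and *Slurp1*. They were picked by symbol with the values of these same libraries known, so their levels and changes are given as a description and without a test. Keratins are the intermediate filament proteins of epithelial cells, and a filament forms only when an acidic (type I) keratin pairs with a basic (type II) keratin. In stratified epithelia *Krt14* pairs with *Krt5* in the basal layer, *Krt10* pairs with *Krt1* above it, and *Krt16* and *Krt17* pair with *Krt6a* and *Krt6b* in stressed or wounded skin, whereas *Krt7*, *Krt8*, *Krt18* and *Krt19* belong to simple epithelia. *Cdsn* encodes corneodesmosin, an adhesive glycoprotein of the junctions between cornified cells, and *Slurp1* encodes a small secreted protein of the Ly6 family that keratinocytes release and that acts on nicotinic acetylcholine receptors. The cytoplasmic filaments of fibroblasts are made mainly of vimentin.

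The NIH3T3 line was established from mouse embryo fibroblasts. All cells were kept in serum-free medium, and for the last 24 h they received nothing (CTRL), GDF15 at 100 ng/mL (GDF15) or TGF-β at 4 ng/mL (TGF-β). Sequencing used RNA pooled by treatment (the methods mention 3 preparations each), which left 1 library per treatment, so 3 libraries in all are compared and no difference has a replicate check. Levels are FPKM, a fragment count divided by transcript length and library depth, and where 3 levels follow each other with no library named they are those of CTRL, GDF15 and TGF-β in turn. The steps between low FPKM values gave depths of about 17000000, 20100000 and 16400000 fragments. Between 23.4% and 24.1% of the rows were listed at 0 in a library. A change is the difference of log2(FPKM + 1) between libraries, a scale that shrinks differences at low FPKM, and over 2-fold means a difference of more than 1 on that scale. Each change is set beside its local spread, that is, how widely the changes of the 500 genes closest in mean FPKM scatter around their median (scaled median absolute deviation). Intervals on fragments are exact Poisson intervals at 95% and cover counting error only.

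The keratin members resemble each other so closely that reads of 50 bases, the length sequenced here, cannot always be assigned to 1 of them. The longest run of identical coding bases was 134 between *Krt14* and *Krt16*, 71 between *Krt14* and *Krt17* and 55 between *Krt16* and *Krt17*, but only 36 between *Krt14* and *Krt10*, 32 between *Krt14* and *Krt19* and 22 between *Krt14* and *Krt18*. The first set of sequences below is shown because a read from it fits *Krt14* and *Krt16* equally well. It gives 60 bases in the middle of the run shared by those genes, with the best matching 60 coding bases of each other type I member, 5′ to 3′ on the mRNA strand, and capitals mark bases that differ from *Krt14*. All lie in exon 1, and *Krt17* differs from *Krt14* at 10 bases, *Krt19* at 13, *Krt10* at 14 and *Krt18* at 23. The sequences and positions are from GENCODE M21 (GRCm38, the assembly also called mm10).
Krt14 (chr11:100207054-100207113, minus strand): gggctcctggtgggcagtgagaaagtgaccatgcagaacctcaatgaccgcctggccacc
Krt16 (chr11:100248513-100248572, minus strand): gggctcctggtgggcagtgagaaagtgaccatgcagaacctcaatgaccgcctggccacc
Krt17 (chr11:100260675-100260734, minus strand): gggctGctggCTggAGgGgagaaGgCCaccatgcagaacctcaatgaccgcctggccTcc
Krt19 (chr11:100145572-100145631, minus strand): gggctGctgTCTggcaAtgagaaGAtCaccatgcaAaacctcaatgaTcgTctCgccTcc
Krt10 (chr11:99388889-99388948, minus strand): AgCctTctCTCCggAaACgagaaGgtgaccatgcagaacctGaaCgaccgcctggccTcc
Krt18 (chr15:102028474-102028533, plus strand): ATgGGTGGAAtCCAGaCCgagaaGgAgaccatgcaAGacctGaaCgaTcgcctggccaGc

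The second set is shown because it is identical in *Krt14* and *Krt17*. It lies in exon 6 of each gene, and *Krt16* differs from both at 2 bases, written in capitals.
Krt14 (chr11:100204120-100204179, minus strand): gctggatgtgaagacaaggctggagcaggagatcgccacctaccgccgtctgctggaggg
Krt17 (chr11:100257445-100257504, minus strand): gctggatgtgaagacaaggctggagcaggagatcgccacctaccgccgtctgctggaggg
Krt16 (chr11:100246622-100246681, minus strand): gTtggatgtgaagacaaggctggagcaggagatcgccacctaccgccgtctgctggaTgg

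*Krt14*, the type I keratin of basal keratinocytes, was the keratin with the highest FPKM in each library, and with the pseudocount of 1 it had the largest change of the 10 genes by either stimulus. It lies on chromosome 11 from 100203162 to 100207548 on the minus strand, in 8 exons. It reached 24.0 FPKM without stimulation, 48.2 FPKM with GDF15 and 136 FPKM with TGF-β, so TGF-β was the highest and CTRL the lowest library. Counted from the highest FPKM of all rows, these are ranks 2633, 1109 and 328. TGF-β thus gave a change of 2.45 and GDF15 one of 0.98, which lie 12.6 and 4.7 local spreads above the local median. Without the pseudocount the FPKM ratios to CTRL were 5.64 and 2.01, which is below those of *Krt17* (7.41 and 3.55), *Krt16* (6.96 and 2.21) and *Cdsn* (6.91 and 2.31). These levels rest on an estimated 694 (interval 643 to 748), 1642 (1564 to 1723) and 3771 (3652 to 3893) fragments. These intervals do not overlap, and the missing replicates, not the depth, are the limit.

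**Figure D1:**
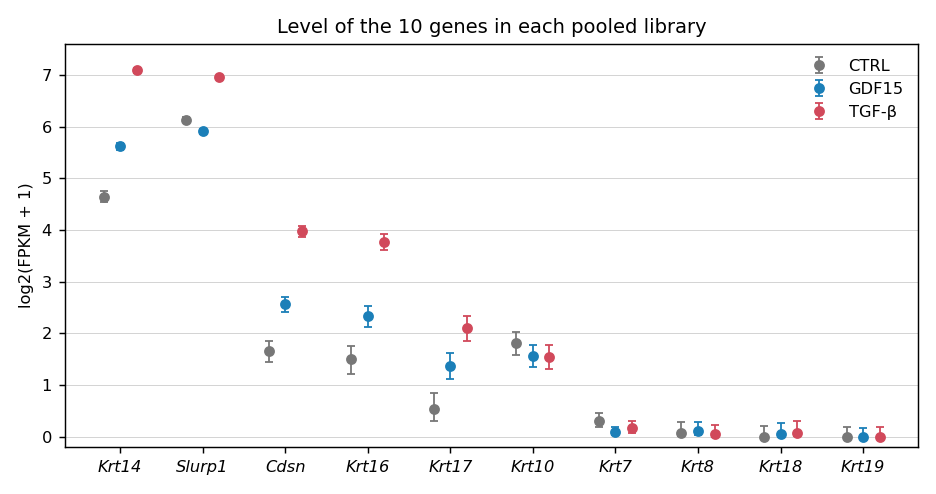
Level of each of the 10 genes as log2(FPKM + 1) in CTRL (grey), GDF15 (blue) and TGF-β (red), 1 pooled library each, with bars for the 95% Poisson interval of the estimated fragments. *Krt14*, *Cdsn*, *Krt16* and *Krt17* rank CTRL, GDF15, TGF-β from low to high, *Slurp1* is high in all libraries, and *Krt7*, *Krt8*, *Krt18* and *Krt19* stay near 0.

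Of the 10 genes, 4 were over 2-fold higher in TGF-β than in CTRL (*Krt14*, *Krt16*, *Krt17* and *Cdsn*), 0 were over 2-fold lower, and 0 passed in either direction with GDF15. Of all 15554 rows, 0.579% were over 2-fold higher and 0.334% lower with TGF-β (0.913% together), against 0.212% higher and 0.0772% lower with GDF15 (0.289% together). Because the 10 genes were chosen from these changes, nothing is read from the difference between these shares. The GDF15 changes of the same 4 genes lay just under the criterion, between 0.83 and 0.98, and their number over 2-fold depended on the scale. It was 2 with a pseudocount of 0.5 and 4 with a pseudocount of 0.1, with no pseudocount, or after removal of a length and GC trend. The share of all rows over 2-fold higher by GDF15 was 0.289% with a pseudocount of 0.5 and 0.894% with one of 0.1. It was 2.27% with no pseudocount (11081 rows above 0 in each library) and 0.22% after removal of the trend. Both comparisons use the same CTRL library, and a high or low value in that library would move them together. The median over the 10 genes was 0.44 for TGF-β and 0.04 for GDF15, and over all rows it was 0 for both.

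**Figure D2:**
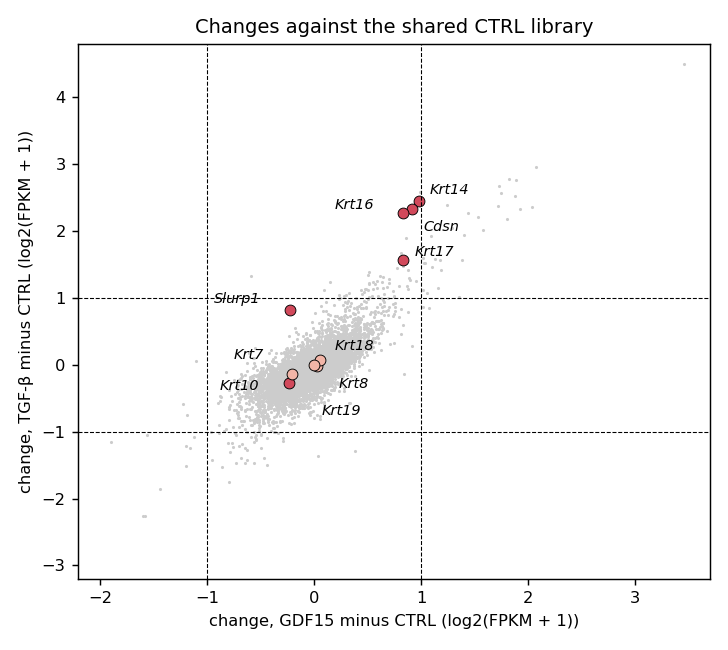
Change by GDF15 (horizontal axis) and by TGF-β (vertical axis), both against the same CTRL library, as differences of log2(FPKM + 1). Grey points are the rows with a mean FPKM of at least 1, coloured points are the 10 genes (dark where the mean FPKM is at least 1), and dashed lines mark 2-fold. *Krt14*, *Cdsn*, *Krt16* and *Krt17* lie above the upper line and left of the right-hand line, and *Slurp1* lies on the side of lower expression by GDF15 and higher expression by TGF-β.

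*Krt16* and *Krt17*, type I keratins of wounded skin, followed *Krt14* at much lower FPKM. *Krt16*, at 100246091 to 100248902 of chromosome 11, was at 1.82, 4.01 and 12.6 FPKM, with a change of 0.83 by GDF15 and of 2.28 by TGF-β. *Krt17*, at 100256217 to 100261029, was at 0.442, 1.57 and 3.28 FPKM, with changes of 0.83 and 1.57. For both genes CTRL was the lowest and TGF-β the highest library. The CTRL value of *Krt17* corresponds to an estimated 11.7 fragments (interval 6.2 to 21). As a share of the FPKM of *Krt14*, *Krt16* was at 7.57%, 8.32% and 9.33%, and *Krt17* at 1.84%, 3.26% and 2.42%.

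These values have to be read beside the shared sequence. Of the 50-base windows of the *Krt14* mRNA, 188 of 1649 also occur in *Krt16* and 55 in *Krt17*, and 382 of the 1516 windows of *Krt16* occur in *Gm11597*, an annotated pseudogene between *Krt14* and *Krt16*. How the authors treated reads that fit several places is not given in the sources used here. If such reads were divided evenly between the genes they fit, the fragments of *Krt14* alone would give *Krt16* 1.59, 3.19 and 8.94 FPKM, which is 87.3%, 79.3% and 70.7% of the deposited values. They would give *Krt17* 0.456, 0.916 and 2.57 FPKM, against deposited values of 0.442, 1.57 and 3.28. With the even division undone, an alternative added after seeing the data, *Krt16* was left with 0.284, 1.02 and 4.56 FPKM and a change by TGF-β of 2.12. *Krt17* was left with a CTRL level below 0 (-0.0146, set to 0) and with 0.667 and 0.713 FPKM after stimulation, and its change by TGF-β was 0.78, no longer over 2-fold. Under the same assumption *Krt14* kept its change of 2.45. Whether reads were in fact divided this way was not tested, so the levels of *Krt16* and *Krt17* are uncertain.

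**Figure D3:**
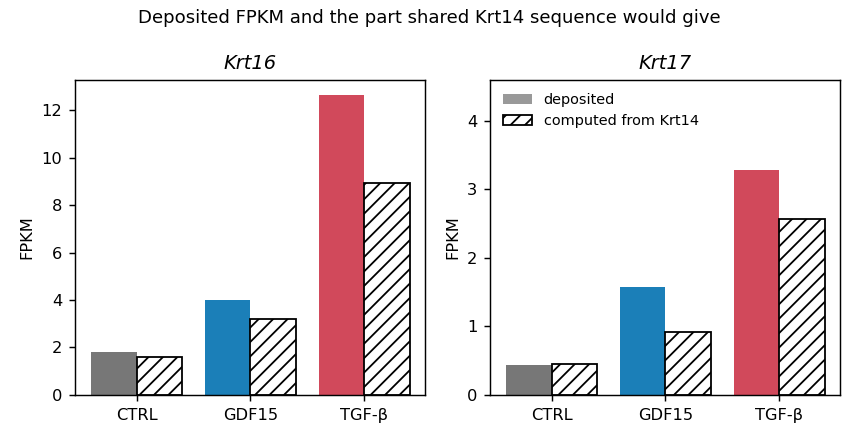
FPKM of *Krt16* (left) and *Krt17* (right) in each library as deposited (filled bars) and as the 50-base windows shared with *Krt14* would give if reads were divided evenly (hatched bars). The hatched bars reach 87.3%, 79.3% and 70.7% of the filled bars for *Krt16*, and for *Krt17* in CTRL the hatched bar (0.456) is as high as the filled one (0.442).

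*Cdsn* shares no 50-base window with another annotated gene and moved with *Krt14*. It lies on chromosome 17 from 35552128 to 35557180 on the plus strand, in 2 exons. Its level was 2.14 FPKM in CTRL, 4.92 FPKM after GDF15 and 14.8 FPKM after TGF-β, the same order of libraries as for *Krt14*. With TGF-β the change was 2.33 (10.8 local spreads) and with GDF15 0.92 (4.2), from an estimated 97.4, 264 and 648 fragments. Over the 7 alternatives of scale and filtering its change by TGF-β lay between 2.33 and 2.79.

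*Slurp1*, located at 74724318 to 74728034 of chromosome 15 (minus strand), had the highest level of the 10 genes in CTRL and GDF15. Levels were 69.3, 59.0 and 123 FPKM, which put it among the 739 highest rows of CTRL, and TGF-β alone stood apart. GDF15 gave a change of -0.23, within its local spread of 0.24, whereas TGF-β gave 0.82, which is 3.8 local spreads above the local median but under 2-fold. The annotated exons of *Slurp1* share 322 bases with *Them6* on the opposite strand, and whether the strand was used in counting is not given in the sources used here. Depending on the transcript length, its CTRL value corresponds to an estimated 669 to 3373 fragments.

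*Krt10*, the suprabasal type I keratin, went with neither group. It lies on chromosome 11 from 99385254 to 99389364 on the minus strand, and 146 of its exon bases are also in *Gm11940*, an antisense gene. It was at 2.49, 1.96 and 1.89 FPKM, highest in CTRL. The changes of -0.24 and -0.27 are about 1 local spread (0.22 and 0.26), and the intervals on its estimated 88.7, 82.3 and 65 fragments overlap. With the shortest coding transcript of *Krt10* the estimates would be 23.6, 21.9 and 17.3 fragments, and the intervals wider for their size. Its order among the members shifted, because *Krt10* had a higher FPKM than *Cdsn* and *Krt16* in CTRL and a lower one than both in the stimulated libraries. In CTRL the intervals of these 3 genes overlap (2.01 to 3.07 for *Krt10*, 1.73 to 2.60 for *Cdsn* and 1.33 to 2.39 for *Krt16*, in FPKM).

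The keratins of simple epithelia were at or near 0 in each library. *Krt7* was at 0.232, 0.0663 and 0.122 FPKM, from an estimated 16, 5.4 and 8.2 fragments, and the intervals overlap. With its shortest coding transcript the estimates for *Krt7* would be only 2.5, 0.85 and 1.3 fragments. *Krt8*, a type II keratin of simple epithelia, was at 0.0500, 0.0715 and 0.0350, and 26.9% of its 50-base windows occur in the pseudogene *Krt8-ps*. Its partner *Krt18* was listed at 0 in CTRL and at 0.0383 and 0.0468 in GDF15 and TGF-β, about 1 fragment each. *Krt19* was listed at 0 in all 3 libraries, and 3 fragments, taken as the floor, would correspond to 0.112, 0.0949 and 0.116 FPKM. Overlap of these intervals is no test of a difference, and the FPKM ratio of *Krt7* was 0.286 for GDF15 and 0.524 for TGF-β against CTRL, which with no pseudocount puts it over 2-fold lower by GDF15 (-1.81).

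Direct comparison of the stimulated libraries put 4 of the 10 genes over 2-fold higher in TGF-β than in GDF15 (*Krt14*, *Krt16*, *Cdsn* and *Slurp1*) and 0 lower, where 0.0836% of all rows (13 rows) were over 2-fold higher and 0.0193% lower (0.103% together). The differences were 1.47 for *Krt14*, 1.44 for *Krt16*, 1.41 for *Cdsn* and 1.04 for *Slurp1*, and they ranked 3rd, 4th, 5th and 11th of the 15554 rows from the highest. As the 10 genes were chosen with these values known, nothing is read from these shares and ranks. *Krt17* differed by 0.73, by 1.02 with a pseudocount of 0.1 and by 1.06 with none, which make it the fifth gene over 2-fold, but by 0.04 with the even division of shared windows undone. *Slurp1* lay close to the criterion, between 1.01 and 1.06 over the 7 alternatives.

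The keratin genes outside the members gave little signal. The table lists 42 of them, of which 32 were at 0 in all 3 libraries, 0 passed 2-fold in any of the comparisons, and the median change was 0, as over all rows. Of all rows only 0.913% passed by TGF-β, 0.289% by GDF15 and 0.103% between both stimuli, so this count of 0 does not set these keratins apart. The usual type II partners of the type I members were listed at or near 0. *Krt5*, the partner of *Krt14*, was listed at 0 in CTRL and TGF-β and at 0.0231 in GDF15, and *Krt1*, *Krt6a* and *Krt6b* were listed at 0 in all libraries, as was *Krt15*, another basal type I keratin. *Krt80*, named after its values were seen, is a type II keratin and was the only other keratin with a mean FPKM of at least 1, at 4.28, 3.62 and 5.71 FPKM. Its changes were -0.19 and 0.34, 1.1 local spreads below and 1.7 above the local median. Between TGF-β and GDF15 *Krt80* differed by 0.54, 3.4 local spreads above the local median.

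The balance of both keratin types differed between libraries. The summed FPKM of the 27 type I keratins of the table was 28.8, 55.8 and 153, of which *Krt14* made up 83.3%, 86.4% and 88.3%. The sum of the 22 type II keratins was 4.6, 3.88 and 5.95, of which *Krt80* made up at least 93.2%. The ratio of the type I to the type II sum was therefore 6.27 in CTRL, 14.4 after GDF15 and 25.8 after TGF-β. Vimentin (*Vim*), the main filament protein of fibroblasts, was at 2245, 2018 and 1700 FPKM, with changes of -0.15 and -0.40. All keratins together came to 1.49%, 2.96% and 9.38% of the FPKM of *Vim*.

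On chromosome 11, *Krt14*, *Krt16* and *Krt17* are consecutive genes of the table, and the keratins on either side of them were silent or nearly so. On one side *Krt9* was at 0.0674 FPKM in CTRL and listed at 0 in the stimulated libraries, and on the other *Krt42* was listed at 0 throughout. *Eif1*, a translation initiation factor gene just beyond them, was at 207, 183 and 195 FPKM.

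**Figure D4:**
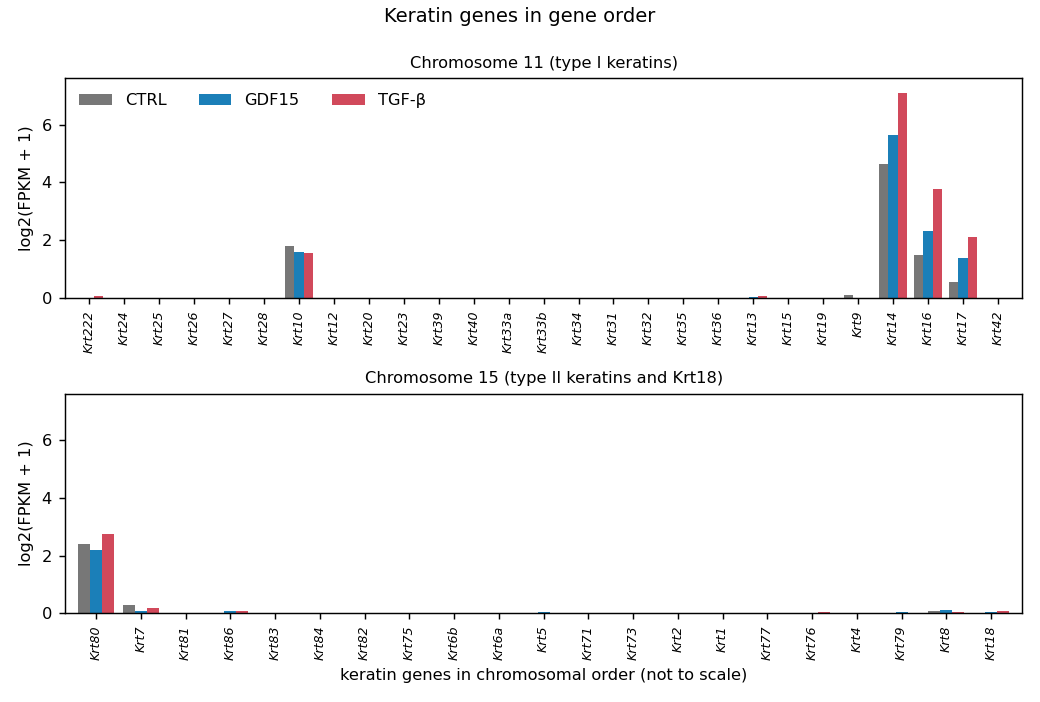
Keratin genes in chromosomal order, not to scale, with log2(FPKM + 1) as bars from 0 for CTRL (grey), GDF15 (blue) and TGF-β (red), for the 48 keratins of the table with a place on chromosome 11 (top) or 15 (bottom). On chromosome 11 signal is seen at *Krt10* and at the neighbours *Krt14*, *Krt16* and *Krt17*, and on chromosome 15 mainly at *Krt80*.

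Other genes of epidermal differentiation did not pass 2-fold in any comparison. Of 37 genes listed for the cornified envelope and late differentiation, 28 are in the table, 13 of these were at 0 in all libraries, and 0 were over 2-fold higher or lower with either stimulus, with a median change of 0. *Ivl* and *Evpl*, which encode envelope scaffold proteins, and *Tgm1*, which encodes the transglutaminase that cross-links the envelope, stayed at an FPKM of at most 0.108 and were named after their values were seen. Others of the list, also named after their values were seen, went otherwise. *Klk7* was at 0.866, 0.743 and 0.291 FPKM, *Sprr1a* at 0, 0.234 and 0.0955, and *Asprv1* at 0.0805, 0 and 0.253. *Sbsn*, the gene of the keratinocyte protein suprabasin, was the exception in level, at 46.4, 33.2 and 43 FPKM. Its changes were -0.47 and -0.11. As *Sbsn* alone of the 28 genes averaged 1 FPKM or more, and few rows of the whole table passed (0.913% with TGF-β and 0.289% with GDF15), the count of 0 says little about the others.

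Genes of proteins that anchor keratin filaments were expressed in part. Of 18 desmosome and linker genes in the table, 7 averaged at least 1 FPKM and 0 were over 2-fold higher or lower. With 0.913% of all rows over 2-fold by TGF-β and 0.289% by GDF15, a count of 0 in a list this short, here and in the 3 lists that follow, does not set it apart from the other genes. *Plec*, the gene of plectin, which ties intermediate filaments to junctions, was at 55.8, 62.3 and 67.7 FPKM. *Jup*, the gene of plakoglobin, was at 16.3, 17.5 and 20.1. *Dst* was at 36.7, 43.8 and 39.8, and *Itga6* at 44.0, 47.0 and 43.2. *Perp*, a desmosomal gene of stratified epithelia, was listed at 0 in all libraries.

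Of the 15 other intermediate filament genes, 0 were over 2-fold higher or lower. The nuclear lamin genes *Lmna* and *Lmnb1* were at 264.5, 271 and 268 FPKM and at 12.7, 11.75 and 10.2 FPKM. Of the 10 genes for keratin-binding and keratin-turnover proteins, again 0 passed. *Krtcap2*, whose name refers to keratinocytes and not to keratin binding, was listed with them, at 153, 135 and 167 FPKM. *Ywhaz* was at 237, 256 and 255. *Stub1*, a ubiquitin ligase gene, and *Dnajb6*, a chaperone gene, were at 59.7, 52.9 and 50.9 and at 41.9, 41.2 and 40.8 FPKM. *Fbf1*, whose protein binds keratin, was at 12.6, 10.7 and 9.54 FPKM, with a change of -0.36 by TGF-β. The largest change with TGF-β was that of *Trim29*, named after its values were seen, at 0.63 by TGF-β (FPKM 1.08, 1.76 and 2.22).

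Among 15 regulators of epithelial and keratin genes, 0 were over 2-fold higher or lower. *Klf4*, a regulator of epidermal barrier genes, was at 85, 97.3 and 127 FPKM, with changes of 0.19 and 0.57 (1.0 and 2.3 local spreads). *Tfap2a*, an activator of basal keratin genes that was named after its values were seen, went the other way, at 11.2, 7.72 and 6.03, with changes of -0.48 and -0.79 (2.4 and 3.4 local spreads below the local median). *Trp63*, the master regulator of stratified epithelia, was at 0.0835, 0.234 and 0.261. Of the 15, 3 averaged at least 1 FPKM, and of these 1 was higher and 2 were lower by either stimulus. The other lower one, *Klf5*, was at 1.895, 1.69 and 1.29, with changes of -0.11 and -0.34. *Grhl1* was at 0.148, 0.182 and 0.5205, with a change of 0.41 by TGF-β (2.3 local spreads). *Klf5* and *Grhl1* were named after their values were seen.

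**Figure D5:**
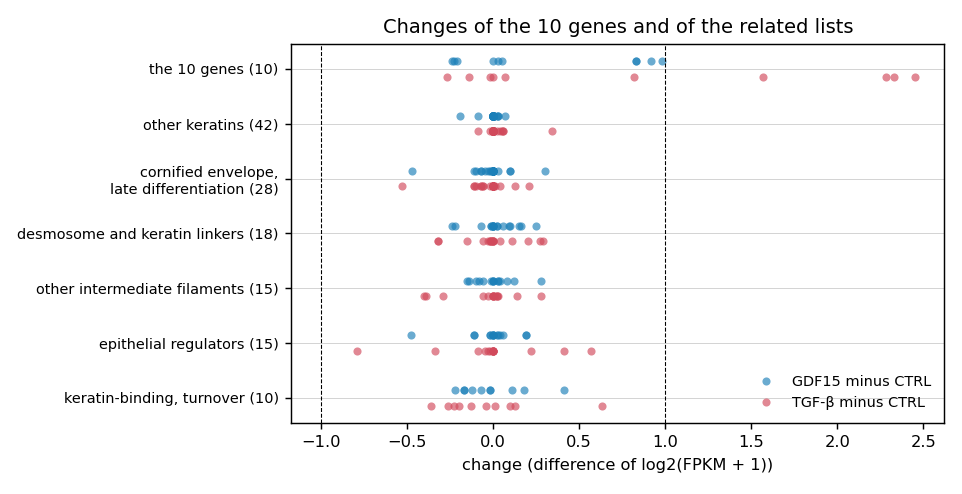
Change by GDF15 (blue) and by TGF-β (red) against CTRL for each gene, as differences of log2(FPKM + 1), for the 10 genes and the related lists, with the number of genes in the table in parentheses and dashed lines at 2-fold. Among the 10 genes, 4 red points pass the right-hand line, and no gene of the other lists passes either line.

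The identity of the cells was checked against marker genes. Of 12 fibroblast markers, 10 had an FPKM of at least 1 in each library, and their summed FPKM was between 16437 and 18908. The genes of fibrillar collagens and fibronectin were abundant, with *Col1a1* at 1103, 1669 and 1902 FPKM, *Col1a2* at 1233, 1841 and 1948, *Col3a1* at 3738, 4484 and 3092 and *Fn1* at 3738, 5815 and 5385. Other fibroblast markers were lower with TGF-β, with *Pdgfra* at 61.3, 61.3 and 35.05 FPKM (change -0.79), *Dcn* at 419, 408 and 249 (-0.75) and *S100a4* at 3817, 2529 and 2942 (-0.38). *Pdgfrb* was at 47.2, 48.5 and 41.8 FPKM and *Thy1* at 35.35, 34.7 and 43.8, so the fibroblast list moved in both directions while *Krt14* was highest in TGF-β. Of 15 markers of stratified epithelium, 2 had an FPKM of at least 1 in each library (*Col17a1* and *Itgb4*, at 8.13 and 3.73 in CTRL and 6.33 and 2.80 in TGF-β), and the summed FPKM was 13.3, 11.45 and 10.2. Of the 15, *Krt15*, *Perp*, *Krt1* and *Ly6d* were listed at 0 in all libraries. Of 10 markers of simple epithelium 0 reached an FPKM of 1, *Epcam* was at 0 in all libraries, and *Cdh1* (E-cadherin) was at 0.685, 0.555 and 0.186 FPKM, whereas *Rab25* (0.0624, 0 and 0.2615 FPKM) and *Cldn7* (0.0482, 0.0583 and 0.143 FPKM), named after their values were seen, were highest in TGF-β. Of 5 mesothelial markers only *Msln* was above 1, at 12.3, 13.5 and 20.3, and 2 of 6 endothelial and blood markers were (*Cd68* and *Lyz2*, named after their values were seen). Most of the stratified sum came from *Col17a1* and *Itgb4*, and single markers went both ways: besides *Cdh1*, *Sfn* was lower with TGF-β (0.511, 0.4875 and 0.318 FPKM), whereas *Trp63* (values above), *Pkp1* (0.0873, 0.203 and 0.2485 FPKM) and *Lamb3* (0, 0.0119 and 0.0582 FPKM) were higher, all named after their values were seen except *Cdh1* and *Trp63*. The mesothelial sum was 12.3, 13.5 and 20.4, nearly all of it from *Msln* alone. *Wt1* was listed at 0 in all libraries, and *Upk3b*, *Lrrn4* and *Upk1b* stayed at an FPKM of at most 0.0611. Whether cells of another type were present and added to the keratin levels was not tested. In bulk RNA, a change in the share of cells that express a gene and a change in RNA per cell cannot be told apart.

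The genes nearest to *Krt14* in the plane of both changes, among the 9226 rows with a mean FPKM of at least 1, were *Cdsn* (distance 0.13), *Eln* (0.14), *Krt16* (0.23), *Wisp2* (0.27) and *Pmepa1* (0.49). The distance is Euclidean over 2 changes that share CTRL, from 3 libraries. If reads were divided evenly, windows shared with *Krt14* would give 87.3%, 79.3% and 70.7% of the FPKM of *Krt16*. The part of shared reads in its nearness was not tested. *Pmepa1*, a TGF-β target that dampens Smad signalling, was at 1.53, 5.83 and 11.2 FPKM, against 1.79, 4.53 and 15.8 for *Eln*, the gene of elastin, and 14.5, 35.5 and 80.1 for *Wisp2*, a gene of the CCN family.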

How the data were processed

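The data are 1 table of 15554 protein coding genes with 1 FPKM column for each of 3 pooled NIH3T3 libraries. The authors made stranded mRNA libraries, sequenced them as single reads of 50 bases, calculated FPKM with Cufflinks and kept genes reviewed in UniProt. The processing notes of the submitters name TopHat 1.3.2, Bowtie 0.12.9, Cufflinks 2.0.2 and mm10. The annotation, the strand setting and the treatment of reads with several matches are not given in the sources used here. FPKM entered every step unchanged, as deposited. Libraries were matched by the treatment in the column names and sample titles.

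The change is the difference of log2(FPKM + 1), and over 2-fold is a difference over 1. With 1 library per treatment no test was possible. The members and gene lists were chosen with earlier results of these data known. Named are the members, listed genes over 2-fold or with a mean FPKM of at least 10, epithelial markers, keratin partners and the 5 genes nearest to *Krt14*. Exceptions are marked, and 1 listed gene that the rule names is not reported here.

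Depth was read from genes for which GENCODE M21 has 1 coding transcript: their low FPKM times that length cluster at whole fragments. Fragments per gene are estimates from this depth and the principal transcript. Shared 50-base windows were counted on the sense strand over all GENCODE M21 transcripts. Of the distinct symbols, 14683 matched GENCODE and 745 matched through an older symbol, and 85 did not match. Alternatives were pseudocounts of 0.5 and 0.1, no pseudocount, a minimum mean FPKM of 1, upper quartile scaling, removal of the running median, removal of the length and GC trend, and, added after seeing the data, an even split of shared windows undone. The calculations were tested on simulated data. Scripts ran in Python 3.11.15 and used pandas 2.3.3, numpy 2.4.6 and scipy 1.17.1, with figures from matplotlib 3.10.9.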

Additional observations from a re-analysis of the deposited data

How the results depend on the processing

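No paired analysis was possible because the 3 libraries are 1 pool per treatment, which also left no replicate to omit. Over all alternatives, 45 of 222 changes of single members moved by more than the local spread. None of those over 2-fold turned its sign, but 2 small ones did after removal of the length and GC trend, from -0.02 to 0.06 for *Krt8* by TGF-β and from 0.01 to -0.09 for *Krt18* between TGF-β and GDF15. The 4 members over 2-fold higher by TGF-β stayed so under the 7 alternatives of scale and filtering, and *Krt17* fell to 0.78 with the even split of shared windows undone. Over the same 7 alternatives, between 0.582% and 3.76% of the rows were over 2-fold higher by TGF-β. By GDF15, the number of members over 2-fold higher was 0, but 1 after upper quartile scaling or removal of the running median, 2 with a pseudocount of 0.5, and 4 with a pseudocount of 0.1, with no pseudocount or after removal of the length and GC trend. The share of rows over 2-fold higher by GDF15 was 0.225% after upper quartile scaling and 0.231% after removal of the running median. It was 0.289% and 0.894% with pseudocounts of 0.5 and 0.1, 2.27% with none and 0.22% after removal of the length and GC trend. With no pseudocount 1 member was over 2-fold lower by GDF15 (*Krt7*) and 1 was lower in TGF-β than in GDF15 (*Krt8*), both at low fragment counts, and 5 instead of 4 members were higher in TGF-β than in GDF15 with a pseudocount of 0.1 or none (*Krt17* added).

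In the lists, 0 genes passed 2-fold on the reported scale, and those that passed elsewhere did so at pseudocounts of 0.1 or none. With a pseudocount of 0.1, 1 cornified envelope gene was higher by GDF15 and 1 lower by TGF-β, 1 higher and 1 lower between TGF-β and GDF15, and 1 regulator was higher by TGF-β and 1 higher in TGF-β than in GDF15. With no pseudocount, 1 gene each of the other keratins, the cornified envelope, the linkers, the other filaments and the regulators was higher by GDF15. By TGF-β, 1 other keratin, 1 linker, 2 regulators and 1 keratin-binding gene were higher, and 5 cornified envelope genes, 2 linkers, 1 other filament gene and 1 regulator were lower. Between TGF-β and GDF15, 1 regulator was higher, and 6 cornified envelope genes, 2 linkers and 1 other filament gene were lower. Genes at a few fragments pass 2-fold easily on these scales. With no pseudocount, of 11081 rows 252 were higher and 337 lower by GDF15, 417 and 372 by TGF-β, and 309 and 216 between TGF-β and GDF15. With a pseudocount of 0.1 these counts were 139 and 176, 243 and 246, and 125 and 102 of 15554 rows.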

Other observations

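Genes that lie next to *Cdsn* and *Slurp1* on the chromosome were looked at after the members' values were known. *Psors1c2* and *Dpcr1*, the nearest genes of the table on either side of *Cdsn*, were at an FPKM of at most 0.286 in each library, and *Tcf19* was at 13.8, 10.8 and 11.9 FPKM in CTRL, GDF15 and TGF-β. Next to *Slurp1*, *Lypd2* was listed at 0 in all libraries, *Psca* was at 0.164 in CTRL and listed at 0 in the others, and *Lynx1*, a further gene of the Ly6 family, was at 23.4, 24.7 and 23.8 FPKM. None of these neighbours was over 2-fold higher in TGF-β than in CTRL. *Gast*, the gastrin gene beyond *Krt17* and *Eif1*, was listed at 0 in CTRL and at 0.364 and 0.668 in GDF15 and TGF-β.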
